A study of Mus musculus with 18 samples.

Results

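*Nqo1*, *Aldh3a1*, *Xdh* and *Ugdh* are the genes described here, a set of oxidoreductases outside the cytochrome P450 family that have been placed among the genes under control of the aryl hydrocarbon receptor (AHR). They were taken by name, as every probe set whose single gene symbol was one of the 4. Each gene had 1 such probe set, so that 4 of 18193 genes and 4 of 45037 probe sets were followed. RNA was measured on 18 Affymetrix mouse genome arrays as log2 signals, with 3 arrays in each of 6 groups. Wild-type cells were Hepa-1c1c7, a mouse hepatoma line, and c35 cells were a derivative of that line whose AHR carries a missense mutation and does not bind DNA. Cells of each line were harvested 8 hr after DMSO (0.1%, the solvent, with no added ligand, called naive), after 5 nM TCDD (2,3,7,8-tetrachlorodibenzo-*p*-dioxin) or after 5 µM BaP (benzo[*a*]pyrene). The labels of the wild-type TCDD arrays give no dose, and the dose here is that of the study's methods. All groups grew in alpha MEM with 5% fetal bovine serum. The c35 line is a single derived line, so the AHR mutation cannot be told apart from other differences between the lines, and in RNA from whole cultures fewer expressing cells and less RNA per cell cannot be told apart.

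The AHR is a cytoplasmic receptor that moves to the nucleus when it binds ligands such as TCDD or BaP, pairs with ARNT, and binds DNA at sites with the core GCGTG. Its classic targets form a battery of drug-metabolizing genes in liver, in which P450 enzymes oxidize the foreign compound and other enzymes handle the products. NQO1 reduces quinones to hydroquinones, ALDH3A1 oxidizes aromatic and medium-chain aldehydes to acids, XDH oxidizes hypoxanthine and xanthine to uric acid with a molybdenum cofactor, and UGDH oxidizes UDP-glucose to UDP-glucuronic acid, the sugar donor for glucuronidation. *Nqo1* is also a known target of NRF2, which binds the antioxidant response element.

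In the GRCm38.p6 assembly *Nqo1* lies on chromosome 8 (107388225 to 107403205), *Aldh3a1* on chromosome 11 (61208510 to 61218418), *Xdh* on chromosome 17 (73883895 to 73950397) and *Ugdh* on chromosome 5 (65413207 to 65435842). Promoter windows from RefSeq, 250 bases before to 50 bases after the annotated start, were at hand for 2 of the 4 genes, and these are a gene that rose with ligand and the gene that did not. The windows were searched on both strands for GCGTG, for TGACNNNGC (the core of the antioxidant response element) and for TATAAA, and each match is in capitals. The *Nqo1* window is chr8:107403156-107403455 and the *Ugdh* window is chr5:65435793-65436092, both on the minus strand and written 5′ to 3′ along the gene.
Nqo1: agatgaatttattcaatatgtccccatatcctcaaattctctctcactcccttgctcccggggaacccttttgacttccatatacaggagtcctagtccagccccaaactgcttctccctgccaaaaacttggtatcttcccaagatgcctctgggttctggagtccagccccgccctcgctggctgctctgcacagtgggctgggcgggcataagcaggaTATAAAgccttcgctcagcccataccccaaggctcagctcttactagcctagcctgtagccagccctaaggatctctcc
Ugdh: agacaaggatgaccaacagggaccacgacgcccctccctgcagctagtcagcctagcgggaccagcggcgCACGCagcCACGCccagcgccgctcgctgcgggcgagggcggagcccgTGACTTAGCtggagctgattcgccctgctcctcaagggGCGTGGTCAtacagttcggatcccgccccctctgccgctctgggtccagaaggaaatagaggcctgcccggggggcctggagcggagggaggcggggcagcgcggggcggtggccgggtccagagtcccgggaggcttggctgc
The *Nqo1* window held TATAAA from -29 to -24 relative to the start and no match to either of the other motifs. The *Ugdh* window held GCGTG at 3 places, read on the opposite strand (as CACGC) from -180 to -176 and from -172 to -168 and on the gene's strand from -94 to -90. It also held TGACNNNGC at 2 places, on the gene's strand from -132 to -124 and on the opposite strand from -94 to -86, where it shares its first bases with the GCGTG there. Its GC content was 71%, against 53.7% in the *Nqo1* window. Of all 32851 windows of 300 bases, 32.4% held GCGTG, 12.4% TGACNNNGC and 13.6% TATAAA on either strand. These matches describe the letters of the windows and were not tested for binding. Bases outside the windows were not searched, so sites further upstream of either gene are not covered.

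The labelled cell type was checked by hepatocyte markers. Of the 11 measured, 8 lay above the median signal of all probe sets in both naive lines. Some were only just above it, such as *Apoa1* at 5.85 in wild-type and 5.97 in c35 cells. The median of the hepatocyte markers was 6.29 in wild-type and 6.08 in c35 cells, against 10.7 and 10.3 for stromal markers. The albumin gene *Alb* was at 13.64 in wild-type and 11.18 in c35 cells, and the alpha-fetoprotein gene *Afp* at 12.11 and 11.93, whereas *Apob*, *Fgb* and *Foxa3* lay below the median. The leukocyte gene *Ptprc* was at 2.93 and 2.85 (2 of 4 immune and 1 of 4 endothelial markers lay above the median in each line), but 5 of 5 stromal markers lay above it, with *Dcn* at 14.07 and 13.68. The 3′ minus 5′ signal of the *Actb* control, a measure of RNA integrity, moved with the line. It was 0.73 to 1.38 on wild-type and 0.30 to 0.53 on c35 arrays, without overlap. Its part in differences between the lines thus cannot be told apart from that of the line. Naive differences of the 4 genes with it as a covariate are given below. No 2 arrays held identical values, and the correlation between arrays was 0.991 to 0.997 within wild-type, 0.995 to 0.998 within c35 and 0.969 to 0.980 between the lines.

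A subset of the c35 arrays stood apart. On c35 DMSO replicates 1 and 2 and c35 BaP replicate 3 the AHR targets *Cyp1a1* and *Tiparp* were at 8.32 to 8.34 and 10.30 to 10.42, against 4.87 to 6.23 and 9.13 to 9.38 on the other 6 c35 arrays. Of the 4 oxidoreductase genes, *Xdh* followed the same division, at 9.55 to 9.61 on these 3 arrays and 8.87 to 9.20 on the other 6. The ranges overlapped for *Aldh3a1* (8.65 to 8.69 against 8.28 to 8.76), for *Nqo1* (8.90 to 8.97 against 8.68 to 9.07) and for *Ugdh* (12.01 to 12.07 against 11.78 to 12.05). The order of the groups and the correlations between genes are given with all arrays only. Because 2 of these arrays that stood apart are naive c35 arrays, most differences that use that group are given below with and without all 3. Leaving them out keeps 1 naive c35 array whose spread is assumed to be that of the other groups.

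**Figure D1:**
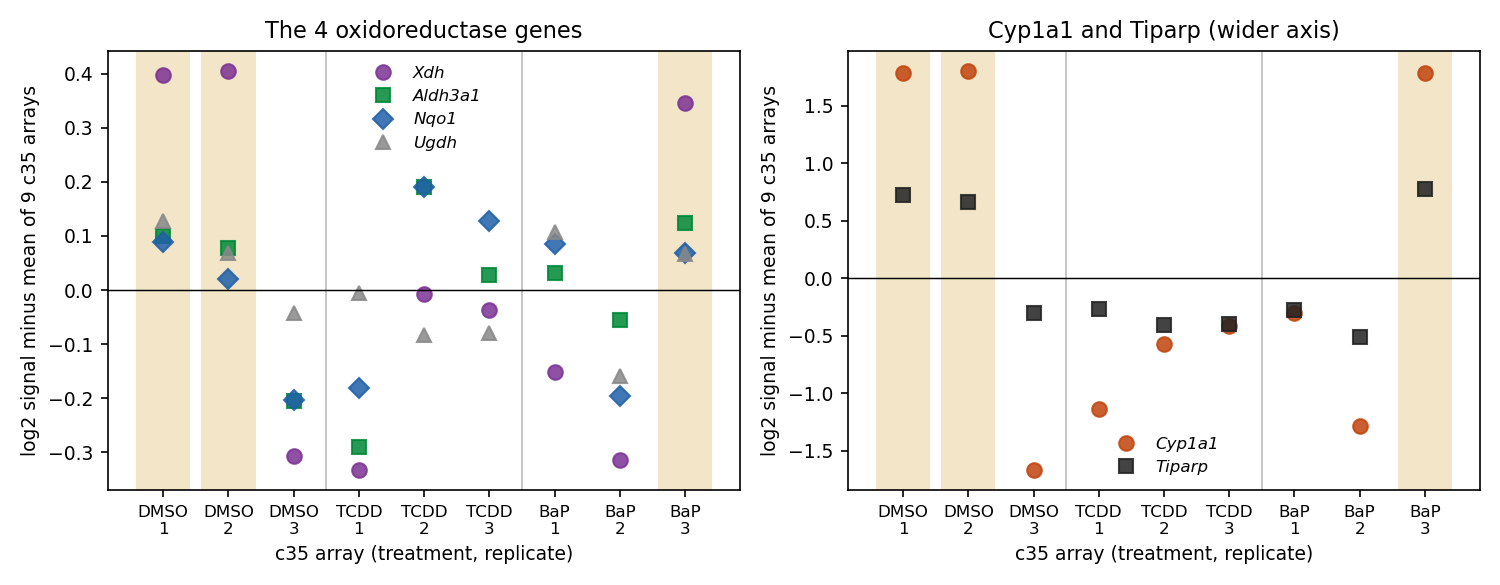
Log2 signal minus the mean of the 9 c35 arrays (y axis) on each c35 array (x axis, treatment and replicate), for the 4 oxidoreductase genes (left) and for *Cyp1a1* and *Tiparp* on a wider axis (right). On the shaded arrays, DMSO 1 and 2 and BaP 3, *Xdh* was at 9.55 to 9.61 against 8.87 to 9.20 elsewhere, while the other 3 genes overlapped.

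TCDD against DMSO in wild-type cells asks which of these genes respond to the persistent ligand. *Nqo1*, *Aldh3a1* and *Xdh* rose between 2.37- and 2.68-fold, and *Ugdh* did not pass the test. *Nqo1* was at 9.17, 9.24 and 9.23 with DMSO and at 10.51, 10.71 and 10.69 with TCDD. *Aldh3a1* went from 7.48, 7.54 and 7.50 to 8.84, 8.93 and 8.98. For both genes every TCDD array lay more than 1 log2 unit above every DMSO array. *Xdh* was at 7.83, 7.89 and 7.76 with DMSO and 9.003, 9.10 and 9.13 with TCDD, again with no overlap. *Ugdh* was at 12.56, 12.24 and 12.26 with DMSO and 12.41, 12.41 and 12.38 with TCDD. Here the TCDD arrays lay inside the range of the DMSO arrays, and that range was set by DMSO replicate 1.

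In the limma fit the log2 difference was 1.42 for *Nqo1* (SE 0.0979, adjusted p = 6.55e-08), 1.41 for *Aldh3a1* (SE 0.101, adjusted p = 1.21e-07) and 1.25 for *Xdh* (SE 0.158, adjusted p = 0.000194). Ordered by p over all probe sets these were in places 4, 5 and 37. For *Ugdh* the difference was 0.05 with a 95% interval of -0.13 to 0.22 (limma adjusted p = 0.884), which reaches at most 1.16-fold. A gene was called changed at an adjusted p under 0.05 and a change above 1.5-fold. Thus 3 of the 4 genes were called higher, beside 0.341% of all genes called higher and 0.0385% called lower with TCDD.

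**Figure D2:**
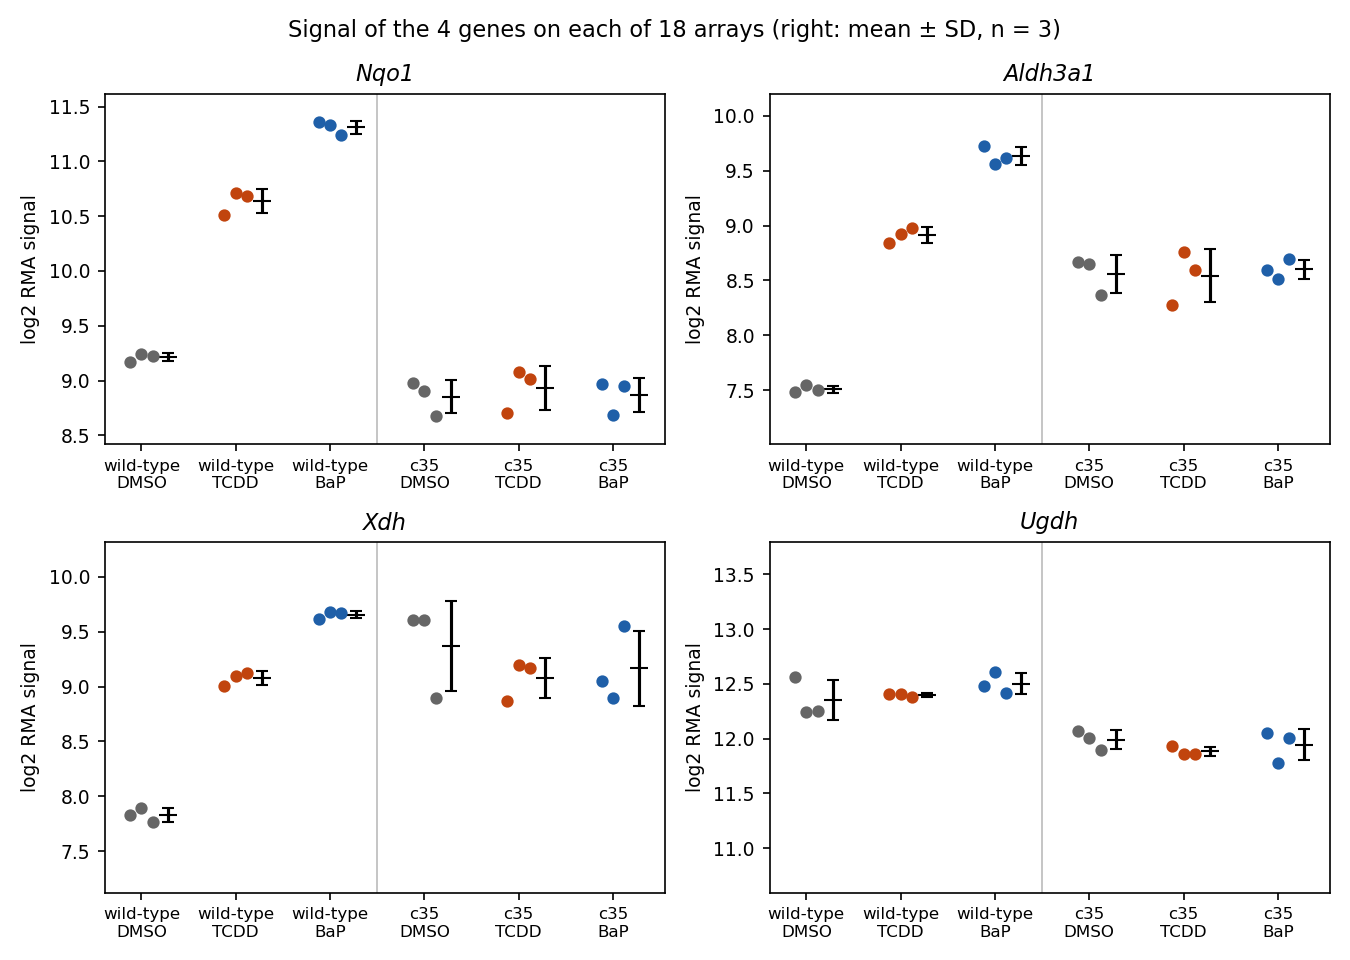
Log2 RMA signal (y axis, own range per panel) of *Nqo1*, *Aldh3a1*, *Xdh* and *Ugdh* on the 18 arrays, by line and treatment (x axis); points are arrays, and the bars beside them the mean ± SD of 3 arrays. With ligand the first 3 genes rose in wild-type cells, to 11.31 ± 0.06 for *Nqo1* with BaP, and differed from naive by -0.29 to 0.08 in c35 cells, while *Ugdh* was at 12.24 or above on all wild-type arrays and at 12.07 or below on all c35 arrays.

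The same 3 genes rose with BaP, a polycyclic hydrocarbon that cells metabolize, by 3.54- to 4.37-fold. *Nqo1* reached 11.36, 11.33 and 11.24 (difference 2.10, 95% interval 1.89 to 2.30, limma adjusted p = 4.98e-11). *Aldh3a1* reached 9.73, 9.56 and 9.62 (difference 2.13, 1.92 to 2.34, limma adjusted p = 5.81e-11). *Xdh* reached 9.62, 9.68 and 9.67 (difference 1.83, 1.496 to 2.15, limma adjusted p = 4.85e-07). For each of the 3 genes all 3 BaP arrays lay above every TCDD array. *Ugdh* was at 12.48, 12.61 and 12.42, overlapping DMSO, with a difference of 0.15 and a 95% interval of -0.02 to 0.32 (limma adjusted p = 0.400), which reaches at most 1.25-fold. With BaP 0.885% of all genes were called higher and 0.434% lower. The TCDD and BaP comparisons share the 3 DMSO arrays, so that they are not independent of each other.

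BaP was also compared directly with TCDD in wild-type cells, at the 1 dose of each ligand used, which differ. *Nqo1* was 1.596-fold higher with BaP (difference 0.67, SE 0.0979, limma adjusted p = 0.00111) and *Aldh3a1* 1.65-fold higher (difference 0.72, SE 0.101, limma adjusted p = 0.000855). Both were called, beside 0.121% of all genes called higher with BaP. *Xdh* had nearly the same difference, 0.58 (95% interval 0.25 to 0.91), but missed both thresholds, at 1.49-fold and adjusted p = 0.0800. Its 3 BaP arrays did not overlap its TCDD arrays. With only the arrays compared in the limma fit, and so without the c35 spread, its SE was 0.0583 in place of 0.158 and its adjusted p = 0.000589, still under 1.5-fold. For *Ugdh* the difference was 0.10 with a 95% interval of -0.07 to 0.28 (limma adjusted p = 0.659).

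**Figure D3:**
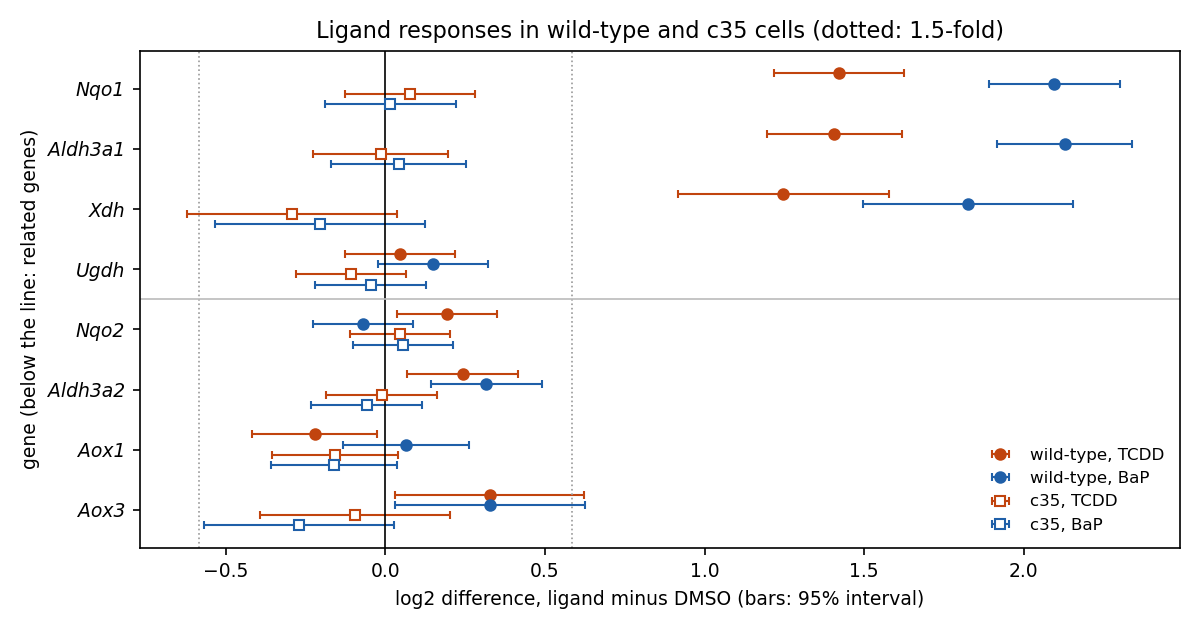
Log2 difference from DMSO (x axis) for the 4 oxidoreductase genes and, below the line, 4 related genes (y axis), in wild-type (filled) and c35 cells (open) with TCDD and with BaP; points are differences of group means fitted in limma (n = 3), bars 95% intervals, and dotted lines mark 1.5-fold. *Nqo1*, *Aldh3a1* and *Xdh* lie at 1.25 to 2.13 in wild-type cells, and all other estimates lie between -0.29 and 0.33.

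None of the 4 genes passed the test with either ligand in c35 cells, where the called share of all genes was 0% with TCDD and 0% with BaP, even at the wider threshold of adjusted p under 0.1 and no minimum change. *Nqo1* was at 8.97, 8.90 and 8.68 with DMSO, 8.70, 9.07 and 9.01 with TCDD and 8.97, 8.69 and 8.95 with BaP. *Aldh3a1* was at 8.67, 8.65 and 8.36, at 8.28, 8.76 and 8.60, and at 8.60, 8.51 and 8.69. The 3 groups overlapped for both genes. *Xdh* was at 9.60, 9.61 and 8.90 with DMSO, 8.87, 9.20 and 9.17 with TCDD and 9.05, 8.89 and 9.55 with BaP, and its high values were those of the 3 arrays that stood apart. *Ugdh* was at 12.07, 12.01 and 11.90, at 11.94, 11.86 and 11.86, and at 12.05, 11.78 and 12.01.

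The limma differences in c35 cells were 0.08 with TCDD and 0.02 with BaP for *Nqo1*, -0.01 and 0.04 for *Aldh3a1*, -0.29 and -0.21 for *Xdh*, and -0.11 and -0.05 for *Ugdh*, with adjusted p from 0.962 to 1. For *Xdh* the 95% intervals were -0.62 to 0.04 with TCDD and -0.53 to 0.12 with BaP. Without the 3 arrays that stood apart the *Xdh* differences were 0.18 and 0.07. Without only c35 DMSO replicate 3 they were -0.53 and -0.44 (limma adjusted p = 0.338 and 0.652). The size of this gene's estimate thus moved with a single naive array. Its sign changed only when the 3 arrays that stood apart were left out together. Without those 3 arrays the differences of *Nqo1* and *Aldh3a1* were 0.25 and 0.18 with TCDD and 0.15 and 0.19 with BaP.

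The response itself was then compared between the lines, as the change with ligand in wild-type cells minus that in c35 cells. For TCDD it was 1.35 higher in wild-type cells for *Nqo1* (limma adjusted p = 5.21e-05), 1.42 for *Aldh3a1* (limma adjusted p = 5.02e-05) and 1.54 for *Xdh* (limma adjusted p = 0.00202). For BaP it was 2.08 for *Nqo1* (limma adjusted p = 3.56e-08), 2.09 for *Aldh3a1* (limma adjusted p = 5.1e-08) and 2.03 for *Xdh* (limma adjusted p = 2.95e-05). These 3 genes of the 4 were called for each ligand, beside 0.275% of all genes called higher for TCDD and 1.01% for BaP. Leaving out the 3 c35 arrays that stood apart keeps 1 naive c35 array, so only sizes are given. The values of *Nqo1*, *Aldh3a1* and *Xdh* were then 1.17, 1.22 and 1.07 for TCDD and 1.95, 1.94 and 1.75 for BaP. For *Ugdh* the difference in response was 0.15 (95% interval -0.09 to 0.40, limma adjusted p = 0.846) for TCDD and 0.20 (-0.05 to 0.44, limma adjusted p = 0.557) for BaP, or 0.06 and 0.13 without those 3 arrays.

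In the absence of ligand the 4 genes divided differently between the lines. *Xdh* was 2.91-fold lower in naive wild-type than in naive c35 cells (difference -1.54, SE 0.158, limma adjusted p = 1.17e-07), and *Aldh3a1* was 2.07-fold lower (difference -1.05, SE 0.101, limma adjusted p = 5.18e-08). The wild-type arrays, 7.76 to 7.89 for *Xdh* and 7.48 to 7.54 for *Aldh3a1*, lay below every c35 array of the same gene whatever its treatment. *Nqo1* and *Ugdh* were 1.28-fold higher in wild-type cells, with differences of 0.36 each (limma adjusted p = 0.00624 and 0.00154), and their groups did not overlap either. Those changes are below the 1.5-fold minimum, so 2 of the 4 genes were called lower in wild-type cells and none was called higher. Of all genes 7.52% were called higher and 6.52% lower in naive wild-type cells.

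Without the 3 arrays that stood apart the naive differences were -1.07 for *Xdh* (limma adjusted p = 6.3e-06), -0.85 for *Aldh3a1* (limma adjusted p = 0.000216), 0.53 for *Nqo1* and 0.45 for *Ugdh*. With the *Actb* 3′ minus 5′ signal as a covariate they were -1.45, -0.996, 0.48 and 0.22, and that of *Ugdh* no longer passed the p threshold (limma adjusted p = 0.236). *Xdh* and *Aldh3a1* stayed called. The part of RNA integrity in the *Ugdh* difference cannot be told apart from that of the line.

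The 6 groups were also ordered by mean log2 signal (± SD, n = 3). For *Nqo1* the 3 c35 groups were lowest and overlapped (8.85 ± 0.15 with DMSO, 8.87 ± 0.16 with BaP and 8.93 ± 0.20 with TCDD), followed without overlap by wild-type DMSO (9.21 ± 0.04), TCDD (10.64 ± 0.11) and BaP (11.31 ± 0.06). For *Aldh3a1* naive wild-type cells were lowest (7.51 ± 0.03), the overlapping c35 groups came next (8.54 ± 0.24 to 8.60 ± 0.09), and wild-type TCDD (8.91 ± 0.07) and BaP (9.64 ± 0.08) were above all of them. *Xdh* also began with naive wild-type cells (7.83 ± 0.07). Its wild-type TCDD level (9.08 ± 0.06) overlapped c35 with TCDD (9.08 ± 0.18), followed by c35 with BaP (9.17 ± 0.34) and DMSO (9.37 ± 0.41), although the 3 naive c35 arrays lay outside the wild-type TCDD range, with 1 below it and 2 near the level of wild-type cells with BaP. Wild-type BaP (9.65 ± 0.03) was the only group whose arrays all lay above every c35 array. For *Ugdh* the 3 c35 groups (11.88 ± 0.04 to 11.99 ± 0.09) lay below the 3 wild-type groups (12.35 ± 0.18 to 12.50 ± 0.10), in which DMSO and TCDD overlapped.

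Of 4 close relatives of the responding genes 0 were called with either ligand, where the share of all genes called higher was 0.341% with TCDD and 0.885% with BaP. *Nqo2*, which encodes a quinone reductase that uses dihydronicotinamide riboside, differed from DMSO in wild-type cells by 0.19 with TCDD (limma adjusted p = 0.280) and -0.07 with BaP (limma adjusted p = 0.743). *Aldh3a2*, which encodes the fatty aldehyde dehydrogenase, differed by 0.24 (limma adjusted p = 0.220) and by 0.32 (limma adjusted p = 0.0293), the latter below 1.5-fold. Among the aldehyde oxidase genes, whose products share the molybdenum chemistry of XDH, *Aox1* differed by -0.22 and 0.06 and *Aox3* by 0.33 and 0.33, with limma adjusted p from 0.239 to 0.823. *Aox3* signal was low, with a mean of 4.31 in naive wild-type cells against a median of 5.66 over all probe sets, so its lack of a call says little. In naive cells *Aox1* was higher in wild-type cells by 0.86 (limma adjusted p = 3.08e-07, and the same value without the 3 c35 arrays that stood apart, adjusted p = 0.000205), opposite in direction to *Xdh*.

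The neighboring pathways were followed with 4 gene lists that leave out the 4 genes themselves. With TCDD, which called 0.341% of all genes higher and 0.0385% lower, 0 of 30 measured quinone and carbonyl reductases, 0 of 19 aldehyde dehydrogenases, 0 of 25 enzymes of purine degradation and the molybdenum cofactor and 0 of 20 genes of UDP-sugar supply and use were called. Their median differences were 0.07, -0.02, 0.03 and 0.03, against 0.01 over all genes, and the listed genes ranged from -0.29 to 0.39. With BaP the medians were -0.0031, -0.05, 0.02 and 0.08, against 0.00 over all genes, and 1 of the 94 genes was called, a share near that of all genes (0.885% higher and 0.434% lower). It was *Slc35d1*, which encodes a transporter that carries UDP-glucuronic acid, the product of UGDH, out of the cytosol. *Slc35d1* rose with BaP by 0.72 (SE 0.109, limma adjusted p = 0.000297) and differed by 0.18 with TCDD (limma adjusted p = 0.542). Its BaP response in wild-type cells exceeded that in c35 cells by 0.95 (limma adjusted p = 0.00187), and by 0.81 without the 3 c35 arrays that stood apart (limma adjusted p = 0.0153).

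Besides *Aldh3a2*, 5 list genes passed the p threshold with BaP but stayed under 1.5-fold. They were *Mocos*, which encodes the sulfurase that activates the molybdenum cofactor of XDH and the aldehyde oxidases, at 0.38 (SE 0.0724, limma adjusted p = 0.00305), and *Suox*, the sulfite oxidase gene, at -0.43 (limma adjusted p = 0.0146). The thioredoxin reductase gene *Txnrd1* was at 0.34 (limma adjusted p = 0.0253), the galactosyltransferase gene *B4galt7* at 0.29 (limma adjusted p = 0.0322) and the hexokinase gene *Hk2* at -0.25 (limma adjusted p = 0.0480). With the 3 c35 arrays that stood apart left out of the fit, *B4galt7*, *Hk2* and *Aldh3a2* no longer passed the p threshold. With TCDD *Mocos* was at 0.27 (limma adjusted p = 0.0995). These 5 genes are named here after their values were seen. By p, *Aldh3a2* was in place 1778 of 45037 probe sets with BaP, so many probe sets outside the lists passed as well.

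**Figure D4:**
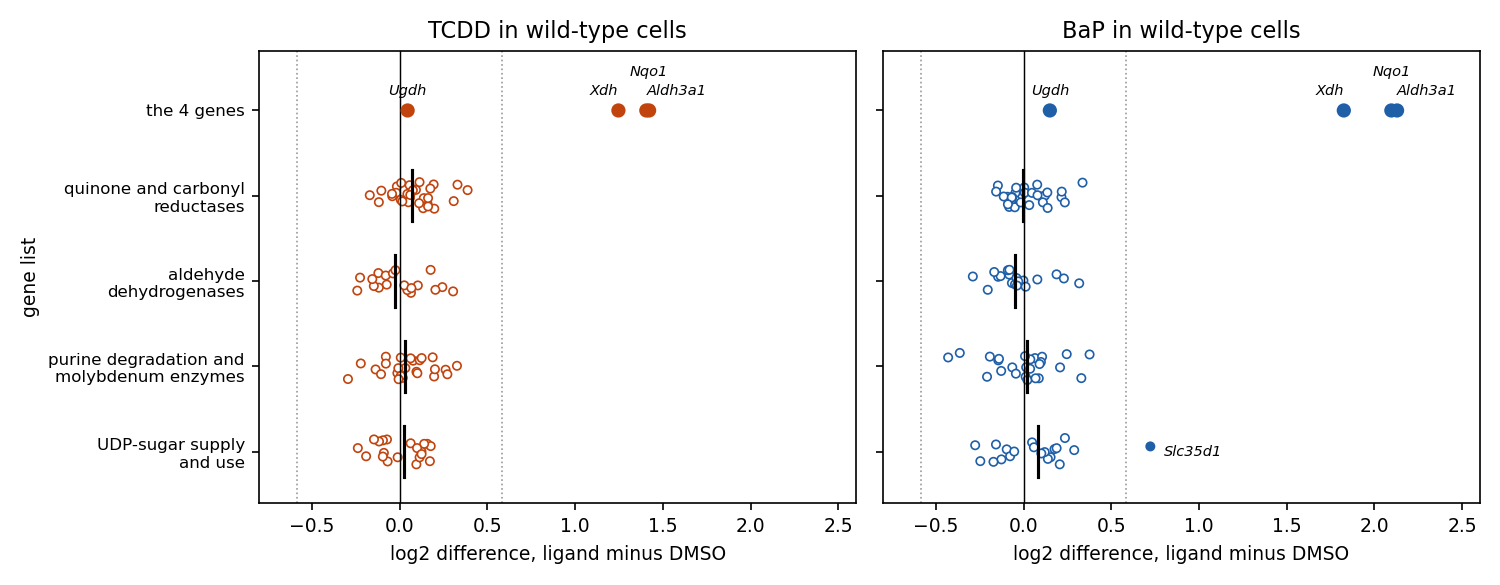
Log2 difference from DMSO in wild-type cells (x axis) with TCDD (left) and BaP (right) for the 4 genes and for 4 lists of related genes (y axis); each point is a gene, filled points in the lists are called, bars mark list medians and dotted lines 1.5-fold. Of the lists only *Slc35d1* with BaP, at 0.72, was called, while *Nqo1*, *Aldh3a1* and *Xdh* lay at 1.25 to 1.42 with TCDD and 1.83 to 2.13 with BaP.

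The genes whose log2 signal followed each of the 4 most closely were sought among 10938 genes by Pearson's r over the 18 arrays, which share groups and lines, and are given as a description. For *Nqo1* they were *Arrdc3* (r = 0.981), *Tbc1d16* (0.979) and *Hbp1* (0.977), which were also lowest in c35 cells and highest in wild-type cells with BaP. For *Aldh3a1* they were *Adh7* (0.924), which encodes an alcohol dehydrogenase, *Tubb2a* (0.912) and *AA414768* (0.912). Mean *Adh7* signal was 7.64, 9.04 and 9.16 in wild-type cells with DMSO, TCDD and BaP and 8.29 to 8.46 in the c35 groups. For *Xdh* they were *Tnfaip2* (0.942), *Rbp4* (0.928), which encodes the plasma retinol-binding protein, and *Egr1* (0.927). *Tnfaip2* was at 7.01, 8.90 and 9.46 in wild-type cells with DMSO, TCDD and BaP and 9.21 to 9.55 in the c35 groups, so that, as for *Xdh*, every c35 mean lay above the naive wild-type mean. For *Ugdh* they were *Taf2* (0.979), *Ssr3* (0.978) and *Ino80d* (0.976), which differed mainly by line. Among the 4 genes r was 0.888 for *Aldh3a1* with *Xdh*, 0.808 for *Nqo1* with *Ugdh*, 0.707 for *Nqo1* with *Aldh3a1* and 0.362 for *Nqo1* with *Xdh*, and was lowest for *Ugdh* with *Aldh3a1* (0.242) and with *Xdh* (-0.08).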

How the data were processed

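The authors deposited log2 signals per probe set from robust multiarray averaging (RMA), with background correction, normalization between arrays and summary over probes. Its software version was not given in the sources used here. Per the study's methods, the 3 arrays per group came from biological replicates. Of 45101 probe sets, 64 controls were left out and 45037 tested. The platform annotation gave 1 gene symbol for 34945, several for 932 and none for 9160, and a gene was represented by its probe set of highest mean signal.

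Group means were fitted to the 18 arrays together in limma 3.58.1 (R 4.3.3) (eBayes with intensity trend, Benjamini-Hochberg adjustment over all probe sets). Calls required an adjusted p under 0.05 and a change above 1.5-fold (in c35 cells adjusted p under 0.1). The script was tested on simulated data. The number of arrays limits precision. The 4 genes, the related genes, the 4 pathway lists and the marker lists were chosen with earlier results of these data known. Named genes were the 4 genes, 4 relatives, called list genes and the 3 genes of highest r with each gene, besides *Cyp1a1* and *Tiparp*, which set 3 c35 arrays apart, markers, and list genes under 1.5-fold named after their values were seen.

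Alternatives were median centring, quantile normalization, no intensity trend, array weights, an *Actb* 3′ minus 5′ covariate, only brighter probe sets, gene means, only the arrays compared, no minimum change, a replicate block and leaving out each array. Leaving out 3 c35 arrays, or all c35 arrays, was added after seeing the data. Promoter windows and gene positions were from RefSeq (GRCm38.p6), and matches were found in Python 3.11.15.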

Additional observations from a re-analysis of the deposited data

Results flagged for a closer look

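In 6 cases the response to a ligand differed between wild-type and c35 cells by a direct test of the difference in limma. Of all genes, 0.275% were called higher in this test for TCDD and 1.01% for BaP. With TCDD the wild-type response was higher by 1.35 log2 units for *Nqo1* (adjusted p = 5.21e-05), by 1.42 for *Aldh3a1* (adjusted p = 5.02e-05) and by 1.54 for *Xdh* (adjusted p = 0.00202). With BaP it was higher by 2.08 for *Nqo1* (adjusted p = 3.56e-08), by 2.09 for *Aldh3a1* (adjusted p = 5.1e-08) and by 2.03 for *Xdh* (adjusted p = 2.95e-05). With all arrays the c35 part of these differences was within 0.08 of 0 for *Nqo1* and *Aldh3a1*. For *Xdh* it was -0.29 with TCDD and -0.21 with BaP. Leaving out the 3 c35 arrays that stood apart keeps 1 naive c35 array. The c35 part was then 0.25 and 0.15 for *Nqo1*, 0.18 and 0.19 for *Aldh3a1* and 0.18 and 0.07 for *Xdh*. The differences in response of *Nqo1*, *Aldh3a1* and *Xdh* were then 1.17, 1.22 and 1.07 with TCDD and 1.95, 1.94 and 1.75 with BaP.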

How the results depend on the processing

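The number of the 4 genes called was unchanged under every alternative for each of the 8 comparisons, except that with no minimum change 4 and not 2 passed between the naive lines. By p, *Nqo1* was only in place 10993 of 45037 probe sets there, so passing without a minimum change was common. Same-numbered arrays of different groups showed no clear pairing (correlations of deviations from group means from -0.26 to 0.22, 8 of 45 above 0.1). Of different-numbered arrays 12 of 90 pairs were above 0.1. This does not show that the arrays were unpaired. With a replicate block the counts were unchanged at 3 for TCDD and 3 for BaP in wild-type cells. Signs changed only among differences that were not called. Leaving out each array in turn gave -0.0093 to 0.15 for *Ugdh* in wild-type cells with TCDD, and for c35 cells -0.12 to 0.12 for *Aldh3a1* and -0.0093 to 0.19 for *Nqo1* with TCDD, -0.53 to -0.17 for *Xdh* with TCDD and -0.44 to -0.068 with BaP, and -0.070 to 0.11 for *Nqo1*, -0.056 to 0.096 for *Aldh3a1* and -0.097 to 0.036 for *Ugdh* with BaP. Without the 3 c35 arrays that stood apart, TCDD gave 0.18 for *Aldh3a1* and 0.18 for *Xdh* and BaP gave 0.074 for *Xdh* and 0.017 for *Ugdh* in c35 cells. *Ugdh* with BaP in wild-type cells reached a limma adjusted p of 0.0388 without DMSO replicate 1, at 0.25. The naive *Nqo1* difference was 0.27 (limma adjusted p = 0.0511) without c35 DMSO replicate 3. Each probe set gives 1 signal per gene, so that effects on single transcripts are not resolved.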

Other observations

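The pathway lists differed between the naive lines more often than with ligand, as did all genes. Of 25 genes of purine degradation and the molybdenum cofactor, 3 were called higher in wild-type cells and 5 lower, beside 7.52% and 6.52% of all genes. *Ada*, which encodes adenosine deaminase, was lower in wild-type cells by 1.49 log2 units (difference -1.49, limma adjusted p = 3.93e-11), and *Pnp*, the purine nucleoside phosphorylase gene, had a difference of -1.17 (limma adjusted p = 2.19e-11). Both enzymes act upstream of XDH, as does the AMP deaminase encoded by *Ampd3*, which was 0.83 higher (limma adjusted p = 1.47e-08). *Gphn*, which encodes the gephyrin that inserts molybdenum into its cofactor, was 1.28 higher (limma adjusted p = 1.94e-05).

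Of 20 genes of UDP-sugar supply and use, 2 were higher in naive wild-type cells and 4 lower, against 7.52% and 6.52% of all genes, and the same shares apply to the following lists. *Ugp2*, whose product makes UDP-glucose, the substrate of UGDH, was 0.72 higher (limma adjusted p = 4.4e-07), and the beta-glucuronidase gene *Gusb* was 1.003 higher (limma adjusted p = 7.06e-09). *B3galt6*, which acts in building proteoglycan linkers, had a difference of -0.98 (limma adjusted p = 4.11e-08). Of 30 quinone and carbonyl reductases 4 were higher and 4 lower, with *Akr1c19* at 0.90 and the cytochrome b5 reductase gene *Cyb5r3* at -1.01 (limma adjusted p = 0.00676 and 8.79e-10). Of 19 aldehyde dehydrogenases 3 were higher and 2 lower, with the succinate semialdehyde dehydrogenase gene *Aldh5a1* at 1.49 (limma adjusted p = 1.25e-07) and *Aldh3b1* at -0.72 (limma adjusted p = 1.28e-05). Without the 3 c35 arrays that stood apart, which leaves 1 naive c35 array, no called list gene changed sign. The differences were then -1.62 for *Ada*, -1.29 for *Pnp* and 0.985 for *Gphn*. They were 0.61 for *Ugp2*, 1.04 for *Gusb*, -1.10 for *B3galt6*, -0.91 for *Cyb5r3* and 1.24 for *Aldh5a1*. *Akr1c19* fell to 0.66 and was no longer called. *Akr1c13*, *Dcxr* and *Hk1* fell under 1.5-fold (0.53, 0.45 and -0.47), while *Pgm1* and *Uxs1* passed it (-0.64 and 0.65). The *Actb* 3′ minus 5′ signal also differed between the lines, and its part in these list genes was not tested.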
